A study of Mus musculus with 8 samples.

Results

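Voltage-gated calcium channels were followed through 10 of their subunit genes, out of 53801 genes in the count table, in the lumbar sensory (dorsal root) ganglia of mice with a ligated spinal nerve. The 10 genes were taken by name, with earlier results of these data known. They are 3 of the α2δ subunits (Cacna2d1, Cacna2d2, Cacna2d3), the pore subunits Cacna1a, Cacna1b, Cacna1e, Cacna1c, Cacna1h and Cacna1i, and the β subunit Cacnb3. All 10 had reads in every library and passed the filter on low counts. Per the labels, the mice were male C57BL/6J animals whose left L4 spinal nerve was tied, and the L3, L4 and L5 ganglia of 3 mice were pooled into each library. The injured-side libraries were taken 1, 3 and 7 days after the ligation (1 library per day), and the contralateral libraries came from the right side of the same mice on the same days. A further pool, labelled no injury and WT, provided a left and a right library, which brings the total to 8. Because only the L4 nerve was tied, 2 of the 3 ganglia in each injured-side library kept their spinal nerve unligated. The protocol describes a sham operation, but no label names a sham library. There was 1 library per side and day, so the replicates of an injury effect are the 3 operated pools. The error of its test also takes in the left to right difference of the no injury pool.

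A calcium channel is built around a pore subunit, which sets the voltage at which the channel opens and the drugs that block it. An intracellular β subunit and an extracellular α2δ subunit help carry the pore to the membrane. High-voltage channels of the P/Q, N and R types trigger transmitter release at sensory nerve endings, L-type channels couple activity to signalling in the cell body, and T-type channels open near the resting potential and shape firing. The α2δ subunits encoded by Cacna2d1 and Cacna2d2 bind gabapentin and pregabalin, drugs used against neuropathic pain, and a rise of the Cacna2d1 product in sensory neurons after nerve injury is long known. Cacna2d3 encodes an α2δ subunit that does not bind these drugs with comparable affinity.

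The RefSeq promoter table for GRCm38.p6 matched 8 of the 10 genes, and Cacna1a and Cacna1h had no entry. The 3 promoters below, each 300 bases long and spanning the start of transcription, belong to 1 gene that was higher and 2 genes that were lower on the injured side. Letters run 5′ to 3′ along the gene's own strand, and capitals mark every match to the GC box GGGCGG or its complement CCGCCC. They come from chr5:15934441-15934740 (plus strand) for Cacna2d1, chr14:29721815-29722114 (minus strand) for Cacna2d3 and chr15:80286988-80287287 (plus strand) for Cacna1i.
Cacna2d1: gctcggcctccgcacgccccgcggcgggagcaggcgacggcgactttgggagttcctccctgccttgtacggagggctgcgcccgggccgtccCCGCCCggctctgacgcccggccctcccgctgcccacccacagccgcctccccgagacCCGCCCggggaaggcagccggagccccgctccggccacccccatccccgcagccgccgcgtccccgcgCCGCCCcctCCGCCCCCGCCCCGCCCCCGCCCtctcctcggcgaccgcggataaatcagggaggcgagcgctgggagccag
Cacna2d3: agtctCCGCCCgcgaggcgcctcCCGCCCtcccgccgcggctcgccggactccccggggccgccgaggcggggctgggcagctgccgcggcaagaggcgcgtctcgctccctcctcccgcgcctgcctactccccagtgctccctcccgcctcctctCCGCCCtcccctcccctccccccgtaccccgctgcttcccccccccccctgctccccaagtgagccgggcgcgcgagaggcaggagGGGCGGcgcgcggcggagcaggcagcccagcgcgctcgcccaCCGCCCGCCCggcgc
Cacna1i: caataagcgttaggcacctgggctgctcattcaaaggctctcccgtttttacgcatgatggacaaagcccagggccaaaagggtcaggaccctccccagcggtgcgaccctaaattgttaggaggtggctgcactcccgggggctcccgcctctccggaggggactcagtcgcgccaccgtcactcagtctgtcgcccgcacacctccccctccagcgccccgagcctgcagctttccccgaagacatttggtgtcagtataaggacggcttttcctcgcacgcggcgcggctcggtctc
The Cacna2d1 promoter had a GC content of 80.0% and 7 GC boxes, some of them overlapping, and the Cacna2d3 promoter had 81.3% and 6. The Cacna1i promoter had a GC content of 62.7% and no GC box. The motif was present on either strand in 35.7% of 32851 promoters of the same length, whose median GC content was 52.7%. The AP-1 motif TGANTCA, held by 7.81% of those promoters, the cyclic AMP response motif TGACGTCA, held by 1.79%, and the TATA motif TATAAA, held by 13.6%, were in none of the promoters of the 8 matched genes. The GC box did not separate the gene that was higher from the genes that were lower.

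The libraries held 20488115 to 21652688 counted reads, and 3 reads, which a count of 0 allows, equalled 0.139 to 0.146 CPM (read counts scaled to each library's total). Such limits cover counting error only. Atf3, a transcription factor gene that injured sensory neurons switch on, had 463.5, 629.2 and 617.7 CPM in injured-side ganglia at days 1, 3 and 7, against 125.6, 166.9 and 110.1 CPM in contralateral ganglia and 10.89 and 10.99 CPM in the no injury pool. The no injury pool differed from the operated pools in its sex genes: Xist had 0 to 3 reads in each operated library against 4931 and 4129 reads in the no injury libraries, and the Y-linked gene Kdm5d had 13.09 to 16.66 CPM in the operated libraries against 0 reads in both no injury libraries. The pool does not match its label of male mice, so sex, pool and surgery cannot be told apart in comparisons with it. In bulk ganglia, fewer cells of a type and less RNA per cell cannot be told apart either.

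On the injured side Cacna2d1 rose 1.80-fold against the contralateral side, and Cacna1i, Cacna2d3 and Cacna1h fell. The other 6 genes did not pass the test (adjusted p under 0.05, edgeR quasi-likelihood test blocked by pool, adjusted over all genes). Among all 16244 genes tested, 10.1% were called higher and 8.02% lower, against 1 and 3 of the 10 calcium channel genes. Because the 10 genes were chosen with earlier results of these data known, these shares are no test of the list. The median log2 fold change was -0.20 over the 10 genes and 0.016 over all genes tested. In every pool 1 of the 10 genes lay above its contralateral library and 4 lay below it, where 28.4% and 25.4% of all genes tested did so. The no injury pool enters this test only through its left to right difference. Without that pool the fold changes hardly moved, but no gene of the 10 passed: the adjusted p was 0.0693 for Cacna2d1, 0.0553 for Cacna2d3, 0.0739 for Cacna1h and 0.066 for Cacna1i. The number of calls also depended on the operated pools. Without the day 7 pool none passed, without the day 3 pool only Cacna1b did, as higher, and without the day 1 pool Cacna2d1 passed as higher and 5 genes as lower. Results over all genes moved too: 5641 of 16244 had an unadjusted p under 0.05 in the main edgeR fit. There were 3857 of 16386 without the day 7 pool, 3967 of 16434 without the day 3 pool and 6584 of 16480 without the day 1 pool. Calls gained or lost below when a pool is left out are to be read beside these numbers.

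**Figure D1:**
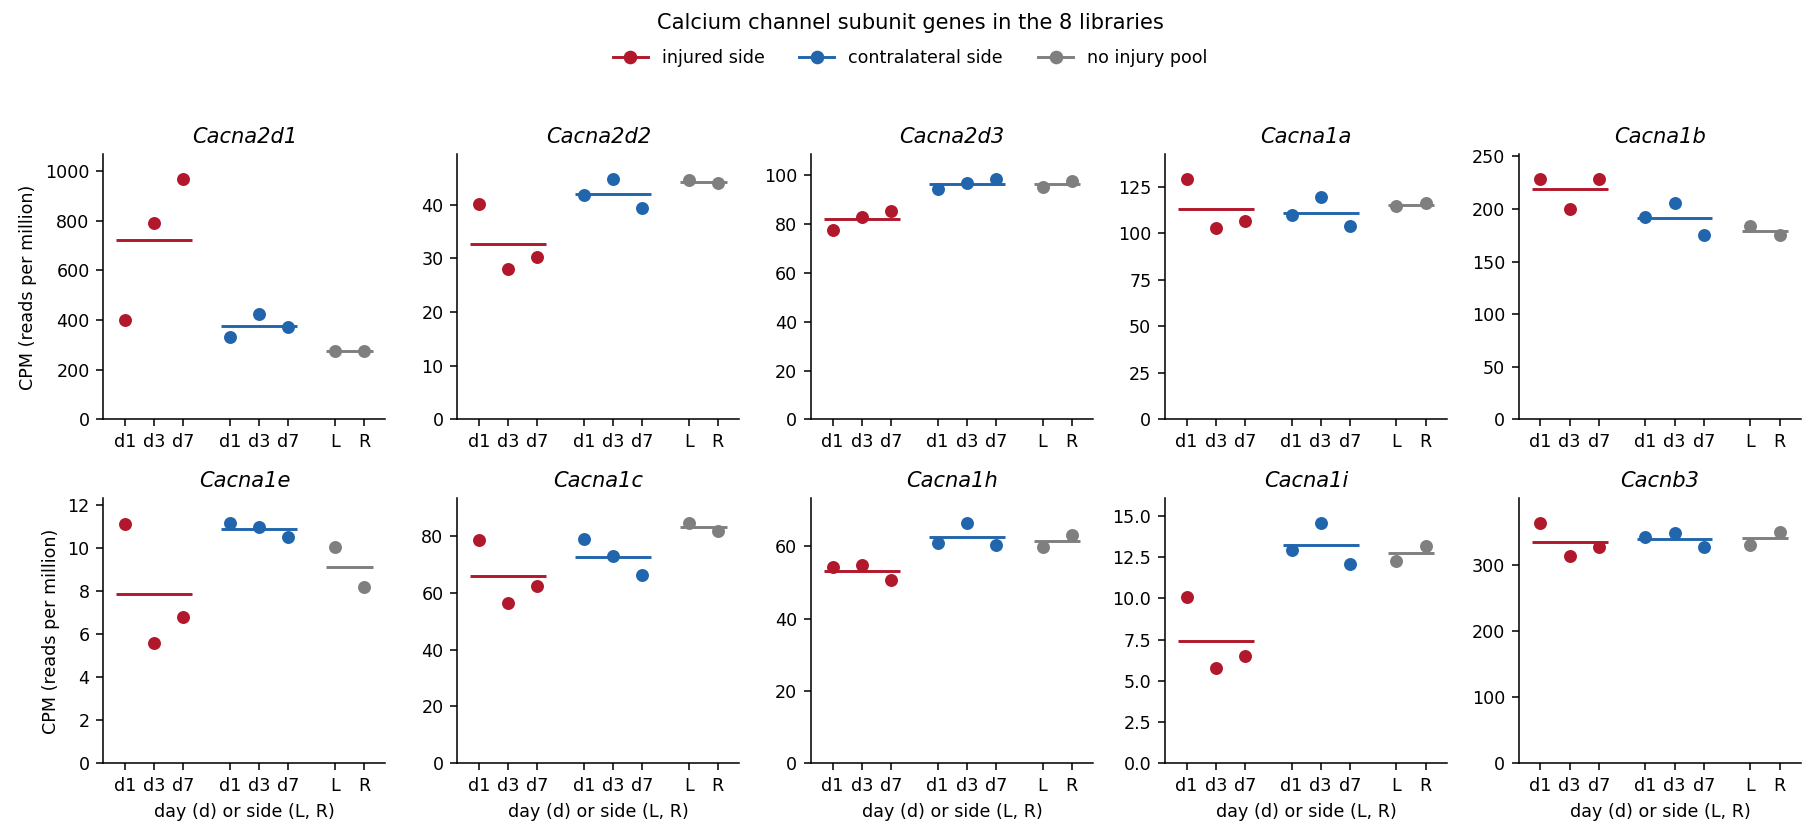
Level of each calcium channel gene in CPM (vertical axes, each starting at 0) in the 8 libraries, with injured-side libraries in red by day, contralateral libraries in blue by day and the left (L) and right (R) no injury libraries in grey. Horizontal bars are group means. Cacna2d1 reached 969.4 CPM in injured-side ganglia at day 7. The 3 injured values of Cacna2d3, Cacna1h and Cacna1i lie below the 3 contralateral values, as for 14.8% of all genes tested.

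Cacna2d1, the main gabapentin-binding subunit gene, had 401.7, 791.2 and 969.4 CPM in injured-side ganglia at days 1, 3 and 7. The contralateral libraries of the same mice had 330.0, 425.2 and 371.6 CPM, and the no injury pool had 274.7 CPM on the left and 275.9 CPM on the right. Every pool was higher on its injured side, and the 3 groups overlapped only in that the injured day 1 value lay below the contralateral day 3 value. The log2 fold change over the pools was 0.85 ± 0.19 (SE; 95% interval 0.38 to 1.33; adjusted p = 0.0355). Within pools the injured side was 1.24-fold higher at day 1, 1.81-fold at day 3 and 2.60-fold at day 7, while left and right differed by a log2 ratio of -0.021 in the no injury pool. Set against the mean of the no injury pool, the injured side was 1.46-, 2.87- and 3.52-fold higher at days 1, 3 and 7. These 3 folds are ratios of plain CPM, whereas the folds within pools come from TMM-scaled log2 CPM. The call was lost without the day 7 pool (log2 0.58, adjusted p = 0.0753), without the day 3 pool (0.85, adjusted p = 0.206) and with no filter on low counts (adjusted p = 0.164), and it held without the day 1 pool (1.12, adjusted p = 0.00062). With DESeq2 the adjusted p was 0.00726. Scaling by pan-neuronal genes, leaving out the no injury pool and adding a term for side each lost the call.

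Cacna2d3 had 77.51, 83.05 and 85.26 CPM in injured-side ganglia at days 1, 3 and 7, against 94.39, 96.84 and 98.71 CPM in contralateral ganglia and 95.4 and 97.77 CPM in the no injury pool. All 3 injured values lay below all 5 others, and the contralateral and no injury values overlapped. The change was small and of like size in each pool, with log2 side ratios of -0.25, -0.26 and -0.22. Over the pools the log2 fold change was -0.24 ± 0.050 (adjusted p = 0.0177), a fold of 0.845. The call was lost without the day 7 pool (adjusted p = 0.087) and without the day 3 pool (adjusted p = 0.0765). It was also lost when libraries were scaled by pan-neuronal genes, without the no injury pool and with side as a further term. Cacna2d2, the other gabapentin-binding subunit gene, had 40.02, 27.95 and 30.2 CPM in injured-side ganglia, against 41.79, 44.84 and 39.31 CPM in contralateral ganglia and 44.59 and 43.97 CPM in the no injury pool. Its day 3 and day 7 injured values were the lowest of the 8, and its day 1 value lay within the contralateral range. The log2 fold change of Cacna2d2 was -0.38 ± 0.12 and did not pass (95% interval -0.66 to -0.089; adjusted p = 0.0742), but it passed without the day 1 pool (-0.56, adjusted p = 0.00169). The α2δ genes did not move as a group: 1 rose and 1 fell.

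**Figure D2:**
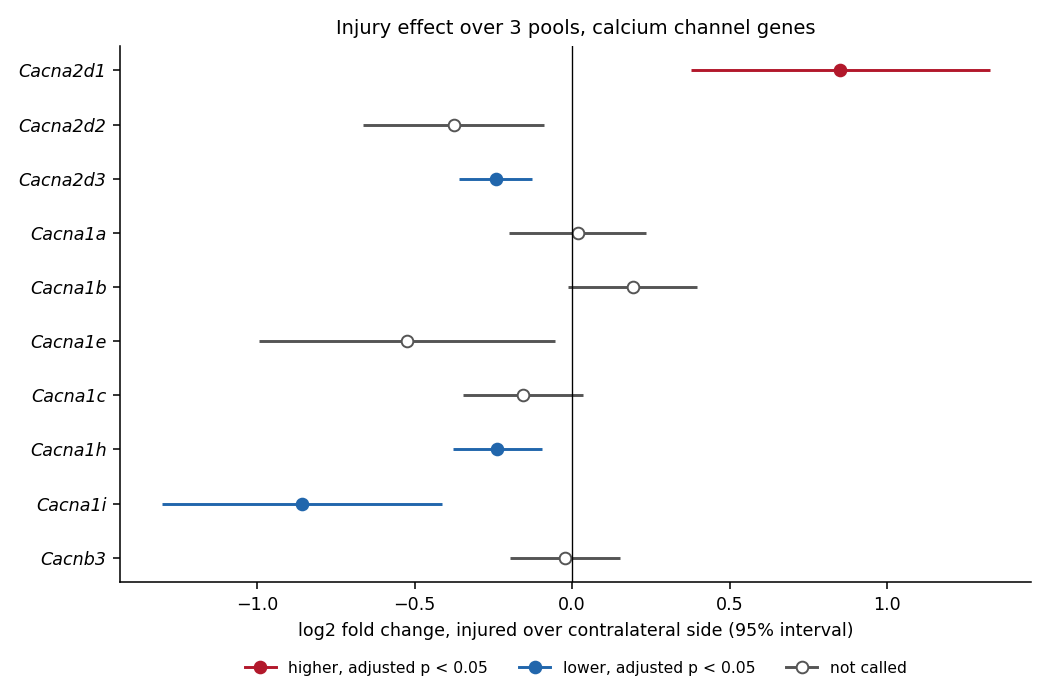
Injury effect on the 10 calcium channel genes: log2 fold change of the injured over the contralateral side over 3 pools (horizontal axis), with 95% intervals from the edgeR fit. Red marks the 1 gene called higher (Cacna2d1, 0.85), blue the 3 called lower (Cacna2d3, Cacna1h and Cacna1i) and open circles the 6 not called.

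Among the pores of transmitter release, Cacna1b encodes the N-type channel, the target of ziconotide. It had 228.5, 199.6 and 228.9 CPM in injured-side ganglia at days 1, 3 and 7, against 192.5, 205.2 and 175.4 CPM in contralateral ganglia and 183.5 and 175.1 CPM in the no injury pool. The injured values at days 1 and 7 were the highest of the 8, while the day 3 value lay below its own contralateral library. The log2 fold change was 0.19 ± 0.088 and did not pass (95% interval -0.012 to 0.40; adjusted p = 0.165). It passed as higher without the day 3 pool (0.33, adjusted p = 0.0327) and when libraries were scaled by the pan-neuronal genes (0.32, adjusted p = 0.0145). That scaling raised the median log2 fold change of all genes from 0.016 to 0.147. Cacna1a, the P/Q-type pore gene, had 129.4, 102.8 and 106.7 CPM in injured-side ganglia, against 109.6, 119.3 and 103.8 CPM in contralateral ganglia and 114.5 and 116.0 CPM in the no injury pool. Its groups overlapped and its log2 fold change was 0.018 ± 0.093, with a 95% interval of -0.20 to 0.24 (adjusted p = 0.916). Cacna1e, the R-type pore gene, had 11.13, 5.58 and 6.82 CPM in injured-side ganglia, against 11.18, 10.99 and 10.5 CPM in contralateral ganglia and 10.03 and 8.18 CPM in the no injury pool. The day 3 and day 7 injured values were the lowest of the 8, and the day 1 value lay within the contralateral range. Its log2 fold change was -0.52 ± 0.20 (95% interval -0.99 to -0.055; adjusted p = 0.111), and without the day 1 pool it passed as lower (-0.82, adjusted p = 0.00405).

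Cacna1c, the L-type pore gene and a target of dihydropyridine blockers, had 78.63, 56.56 and 62.44 CPM in injured-side ganglia, against 79.08, 73.09 and 66.09 CPM in contralateral ganglia and 84.7 and 81.61 CPM in the no injury pool. The day 3 and day 7 injured values were the lowest of the 8, and the no injury values were the highest. The log2 fold change was -0.16 ± 0.082 and did not pass (95% interval -0.35 to 0.035; adjusted p = 0.22).

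Both T-type pore genes among the 10 fell. Cacna1i, whose product gives slowly inactivating low-voltage currents, had 10.05, 5.77 and 6.49 CPM in injured-side ganglia (206, 122 and 137 reads), against 12.91, 14.59 and 12.1 CPM in contralateral ganglia (275, 312 and 257 reads) and 12.29 and 13.16 CPM in the no injury pool. All 3 injured values lay below the 5 others. Its log2 fold change of -0.86 ± 0.19 (95% interval -1.30 to -0.41; adjusted p = 0.0254), a fold of 0.551, was the largest fall among the 10 genes. Within pools the log2 side ratio was -0.33 at day 1, -1.36 at day 3 and -0.89 at day 7, and -0.11 for left over right in the no injury pool. The call was lost without the day 7 pool (adjusted p = 0.142) and without the day 3 pool (log2 -0.61, adjusted p = 0.0615). Leaving out the no injury pool and adding a side term each lost it as well.

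Cacna1h, the main T-type pore gene of sensory neurons, had 54.37, 54.77 and 50.56 CPM in injured-side ganglia, against 60.86, 66.54 and 60.39 CPM in contralateral ganglia and 59.87 and 63.13 CPM in the no injury pool. The injured values again lay below all 5 others, by a smaller step. The log2 fold change was -0.24 ± 0.061 (adjusted p = 0.0342), a fold of 0.848. Its call was lost without the day 7 pool, without the day 3 pool (adjusted p = 0.16 in both) and with DESeq2 (adjusted p = 0.0572). Scaling by the pan-neuronal genes, leaving out the no injury pool and adding a side term each lost it as well. Cacna2d3, Cacna1h and Cacna1i were the genes among the 10 whose 3 injured values all lay below the 3 contralateral ones, which 14.8% of all genes tested did. None of the 10 had all 3 injured values above, which 15.3% of all genes tested had. How many of all genes had injured values below or above all 5 others was not counted, for these genes or those named below.

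Cacnb3, the β subunit gene among the 10, had 363.5, 313.3 and 327.0 CPM in injured-side ganglia, against 341.0, 348.0 and 326.6 CPM in contralateral ganglia and 330.2 and 348.9 CPM in the no injury pool. The highest and the lowest of the 8 values were both on the injured side. The log2 fold change was -0.023 ± 0.075 with a 95% interval of -0.20 to 0.15 (adjusted p = 0.854).

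**Figure D3:**
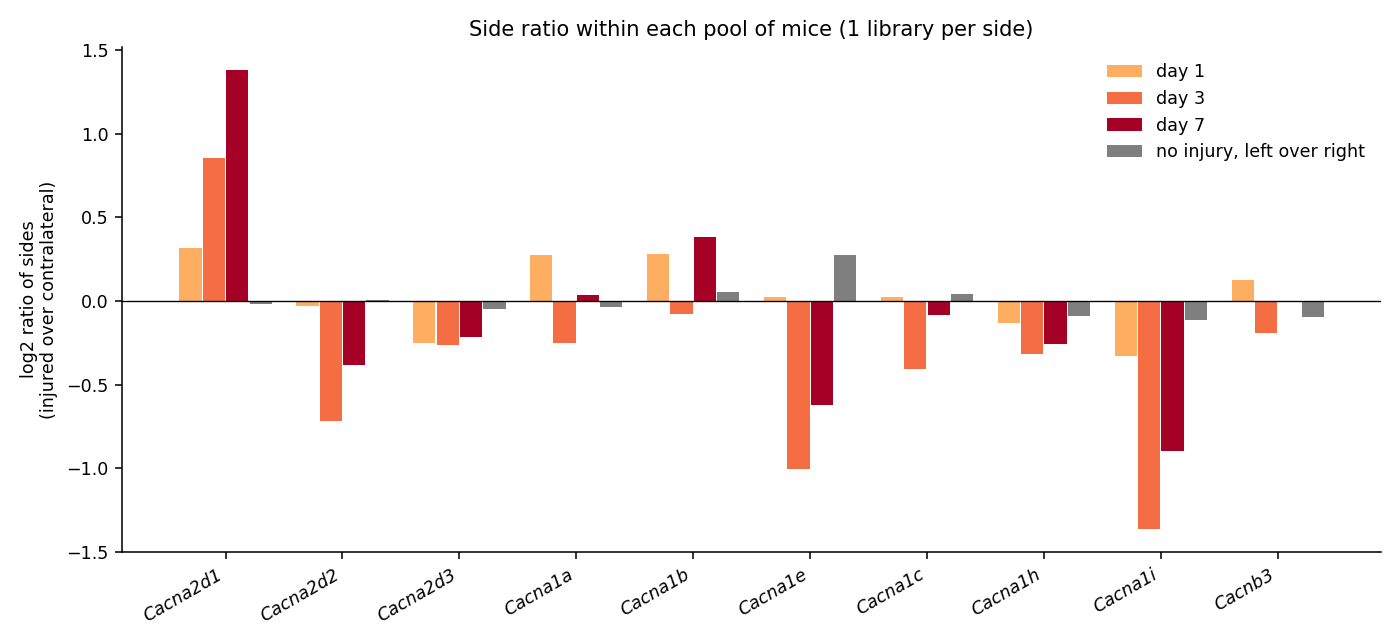
Log2 ratio of the sides within each pool (vertical axis; log2 CPM after TMM scaling, prior count 2, 1 library per side, no test) for the 10 genes, with operated pools by day and left over right of the no injury pool in grey. Cacna2d1 stands at 0.31, 0.86 and 1.38 at days 1, 3 and 7, and Cacna1i at -0.33, -1.36 and -0.89.

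By pool, the injured side had 6 of the 10 genes higher and 4 lower at day 1, with a median log2 side ratio of 0.024. At day 3, 1 was higher and 9 lower (median -0.29), and at day 7, 3 were higher and 7 lower (median -0.15). The median over all genes tested was 0.013, 0.020 and 0.0034 on these days, and left over right in the no injury pool gave 4 higher and 6 lower (median -0.027). Day 3 held the lowest side ratio of Cacna2d2 (-0.72), Cacna2d3 (-0.26), Cacna1a (-0.25), Cacna1b (-0.080), Cacna1c (-0.41), Cacna1e (-1.01), Cacna1h (-0.32), Cacna1i (-1.36) and Cacnb3 (-0.19). Cacna2d1 had its lowest ratio at day 1 and its highest at day 7. These are ratios of single libraries and have no test per day. Of all genes tested, 52.0% were higher and 48.0% lower at day 3. The pan-neuronal genes, used as markers below, were as a set also lowest against the contralateral side at day 3. Their geometric mean was 467.1 CPM in injured against 481.9 CPM in contralateral ganglia at day 1. It was 418.5 against 494.1 CPM at day 3 and 436.8 against 466.3 CPM at day 7. Whether the channel genes fell beyond neuronal genes in general at day 3 was not tested.

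A trend of the side difference with time was tested per doubling of days. Cacna2d1 had the steepest slope of the 10 genes, 0.38 ± 0.053 log2 units per doubling (95% interval 0.25 to 0.50), but it did not pass over all genes (adjusted p = 0.123, unadjusted p = 0.00016). In this test 0% of all genes were called in either direction by edgeR, although 1299 had an unadjusted p under 0.05, and DESeq2 called 37 genes higher and 12 lower, Cacna2d1 among the higher ones (adjusted p = 1.47e-06). Cacna2d1 also passed with no filter on low counts (adjusted p = 0.0362). Over pairs of days its slope was 0.34 without day 7, 0.38 without day 3 and 0.44 without day 1; each pair sets 1 pool against 1 pool and is given without a test. The other 9 genes had slopes of -0.26 to 0.023 and adjusted p of 0.722 or above. From day 1 to day 3 alone, Cacna2d2, Cacna1a, Cacna1c, Cacna1e and Cacna1i had slopes of -0.44, -0.33, -0.28, -0.66 and -0.66, and from day 3 to day 7 of 0.29, 0.25, 0.28, 0.33 and 0.40, again without a test.

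Between the contralateral and the no injury libraries none of the 10 genes passed, where 0.125% of 16747 genes tested were called higher and 0.155% lower. At an unadjusted p under 0.05, 1480 genes differed, and of the 10 genes only Cacna2d1 was among them. Its 3 contralateral values all lay above the no injury values, with a log2 fold change of 0.46 ± 0.16 (95% interval 0.068 to 0.85; adjusted p = 0.477). Without the contralateral day 1 library its log2 fold change was 0.54, from a fit with 1 residual degree of freedom that is given without a test. With no filter on low counts Cacna2d1 was called (0.43), and with DESeq2 it was not. In each of these fits the no injury side is 1 summed sample. Of the other 9 genes, the log2 fold changes ran from -0.18 for Cacna1c to 0.27 for Cacna1e. The contralateral values of Cacna1e also all lay above the no injury values, and those of Cacna1c all lay below them. The share of all genes separated in this way was not counted. The comparison of contralateral and no injury libraries sets operated animals against the pool whose sex genes do not match its label. Between the injured side and that pool alone, Cacna2d1 gave a log2 fold change of 1.39 (edgeR adjusted p = 0.0751). That fit counted the left and right libraries of the pool as separate samples, so its p-value does not measure spread between pools.

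**Figure D4:**
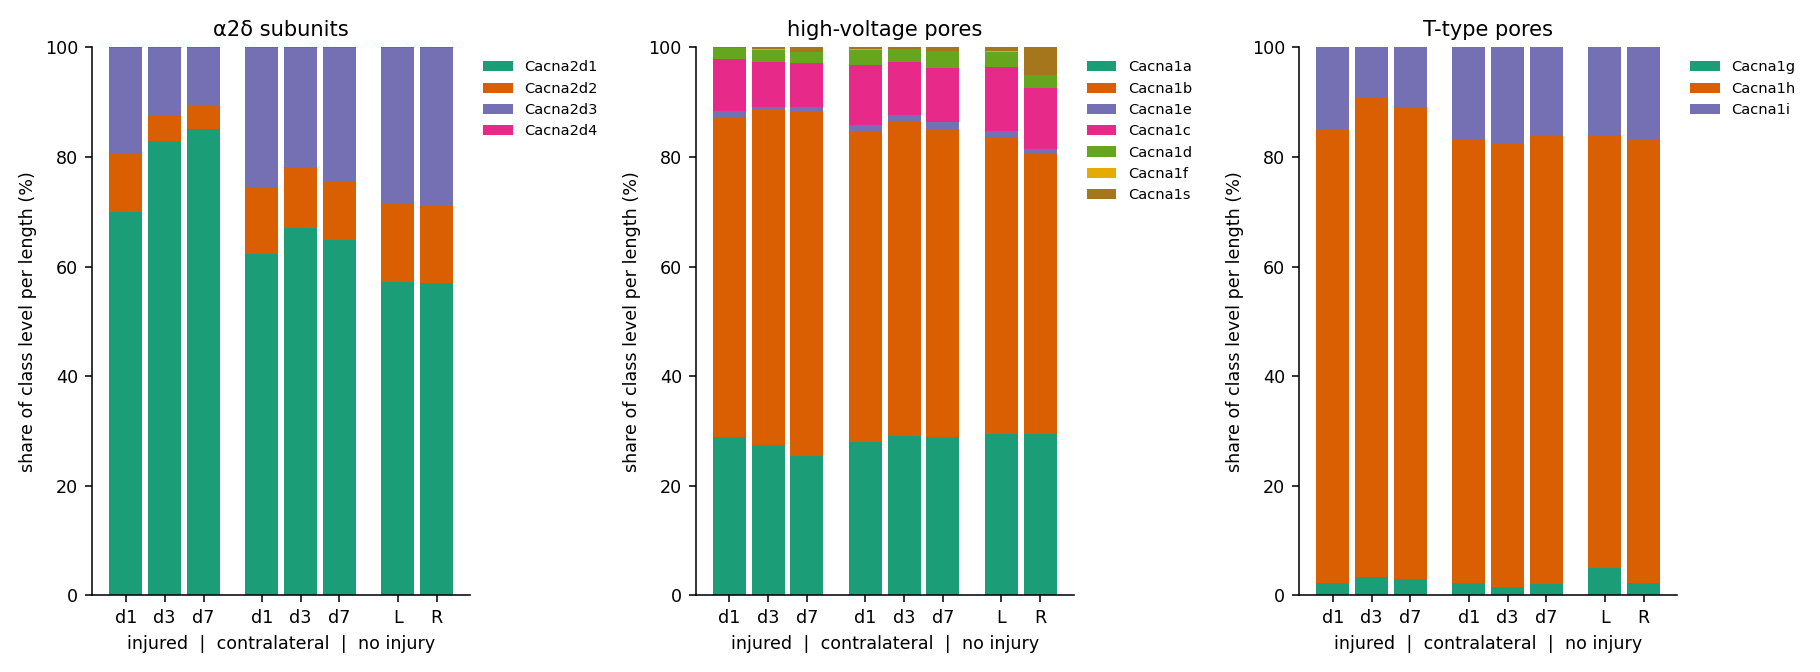
Share of each gene in the summed level per merged exon length of its class (vertical axis, %) in the 8 libraries, for the α2δ genes, the high-voltage pore genes and the T-type pore genes, with injured, contralateral and no injury libraries left to right. Cacna2d1 makes up 69.9%, 83.0% and 85.2% of the α2δ level in injured-side ganglia at days 1, 3 and 7, against 62.3%, 67.1% and 64.8% on the contralateral side.

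Levels of different genes were compared per kilobase of merged exon length (RPKM, from GENCODE M21 gene models), a scale that ignores which transcript is used and understates genes with long alternative exons. The summed level of the α2δ genes was 46.3, 76.83 and 91.69 RPKM in injured-side ganglia at days 1, 3 and 7, against 42.69, 51.03 and 46.22 RPKM on the contralateral side and 38.7 and 39.01 RPKM in the no injury pool. Cacna2d1 made up 79.3% ± 8.26 of it on the injured side, 64.7% ± 2.42 on the contralateral side (SD, n = 3 each) and 57.1% in the no injury pool, and its share was higher on the injured side of every pool, by 7.61, 15.9 and 20.4 percentage points. Cacna2d3 made up 14.1% ± 4.51 on the injured side, 23.9% ± 1.88 on the contralateral side and 28.5% in the no injury pool. For both genes the 3 injured shares did not overlap the 3 contralateral ones. The sum over the high-voltage pore genes was 39.3, 32.86 and 36.66 RPKM in injured-side ganglia, against 34.24, 35.96 and 31.44 RPKM on the contralateral side, and the groups overlapped. Within it the Cacna1b share was 60.8% ± 2.18 on the injured side and 56.7% ± 0.657 on the contralateral side, higher in every pool and without overlap. The shares of Cacna1e, Cacna1c, Cacna1d and the low-count gene Cacna1f also did not overlap, and were lower on the injured side. Those of Cacna1a and Cacna1s overlapped. The injured day 1 share of Cacna1e, 1.12%, lay above its right no injury share of 0.939%. Cacna1f had 1, 2 and 1 reads in injured-side libraries at days 1, 3 and 7, against 4, 3 and 5 reads in contralateral ones. Separate shares were common: those of Cacna1h, Cacna1i and Cacnb2 in their own classes were separate too. How often shares separate in other gene classes was not counted. The sum over the T-type genes was 6.74, 6.41 and 6.01 RPKM in injured-side ganglia, against 7.72, 8.42 and 7.57 RPKM on the contralateral side and 7.76 and 7.98 RPKM in the no injury pool, all lower on the injured side. Cacna1i held 11.7% ± 3.08 of the T-type level on the injured side and 16.9% ± 0.680 on the contralateral side, while Cacna1h held 85.4% ± 2.48 on the injured side and 81.1% ± 0.514 on the contralateral side. Shares within a class do not depend on library scaling, and they have no test here. They are not independent results, because a rise of any share lowers the others. Cacna1h gained share while its level fell.

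In the contralateral libraries the order of the 10 genes by level per length was Cacnb3 (84.4 ± 2.71 RPKM), Cacna2d1 (30.3 ± 3.84), Cacna1b (19.2 ± 1.504), Cacna2d3 (11.1 ± 0.249), Cacna1a (9.71 ± 0.684), Cacna1h (6.41 ± 0.351), Cacna2d2 (5.28 ± 0.349), Cacna1c (3.43 ± 0.307), Cacna1i (1.34 ± 0.129) and Cacna1e (0.432 ± 0.0139; SD, n = 3). The ranges of all neighbours in this order were separate. Cacna1c and Cacna1e have the longest merged exon lengths, 21191 and 25228 bases, which lowers their place. On the injured side Cacna2d1 averaged 58.1 ± 23.4 RPKM and Cacnb3 83.5 ± 6.47 RPKM; at day 7 Cacna2d1 reached 78.08 RPKM.

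Of the 16 other subunit genes of these channels and their relatives, 12 were tested, and 0 were called higher and 1 lower, against 10.1% and 8.02% of all genes tested. That gene was Cacng2, which encodes stargazin, a protein known mainly as an auxiliary subunit of AMPA-type glutamate receptors. It had 16.84, 12.63 and 16.57 CPM in injured-side ganglia at days 1, 3 and 7, against 27.61, 26.98 and 25.65 CPM in contralateral ganglia and 29.45 and 29.74 CPM in the no injury pool. All injured values lay below all others, and the log2 fold change was -0.81 ± 0.10 (95% interval -1.05 to -0.58; adjusted p = 0.00361). The L-type pore gene Cacna1d (-0.31 ± 0.099, adjusted p = 0.0628) and the β subunit genes Cacnb2 (-0.38 ± 0.13, adjusted p = 0.0765) and Cacnb4 (-0.38 ± 0.15, adjusted p = 0.14) had negative values that did not pass. Exons of Cacna1d overlap those of Chdh on the opposite strand, and no source used here states whether reads were counted by strand. The β subunit gene Cacnb1 had 0.056 ± 0.074, the T-type pore gene Cacna1g 0.23 ± 0.34, the skeletal muscle pore gene Cacna1s 0.20 ± 0.93, and the γ-type genes Cacng3, Cacng4, Cacng5, Cacng7 and Cacng8 ran from -0.21 to 0.47. Cacna1f, Cacna2d4, Cacng1 and Cacng6 were under the filter on low counts. Cacna1s was lower in contralateral than in no injury libraries (log2 -2.85, with the no injury libraries summed to 1 sample). It had 0.845, 0.608 and 1.27 CPM in contralateral ganglia at days 1, 3 and 7. The no injury pool had 1.64 CPM on the left (34 reads) and 11.36 CPM on the right (246 reads), a spread that the summed sample hides. The 5 skeletal muscle markers summed to 13.9 to 94.99 CPM in the contralateral libraries and 133.9 to 990.3 CPM in the no injury libraries. The part of muscle in the Cacna1s difference was not tested.

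**Figure D5:**
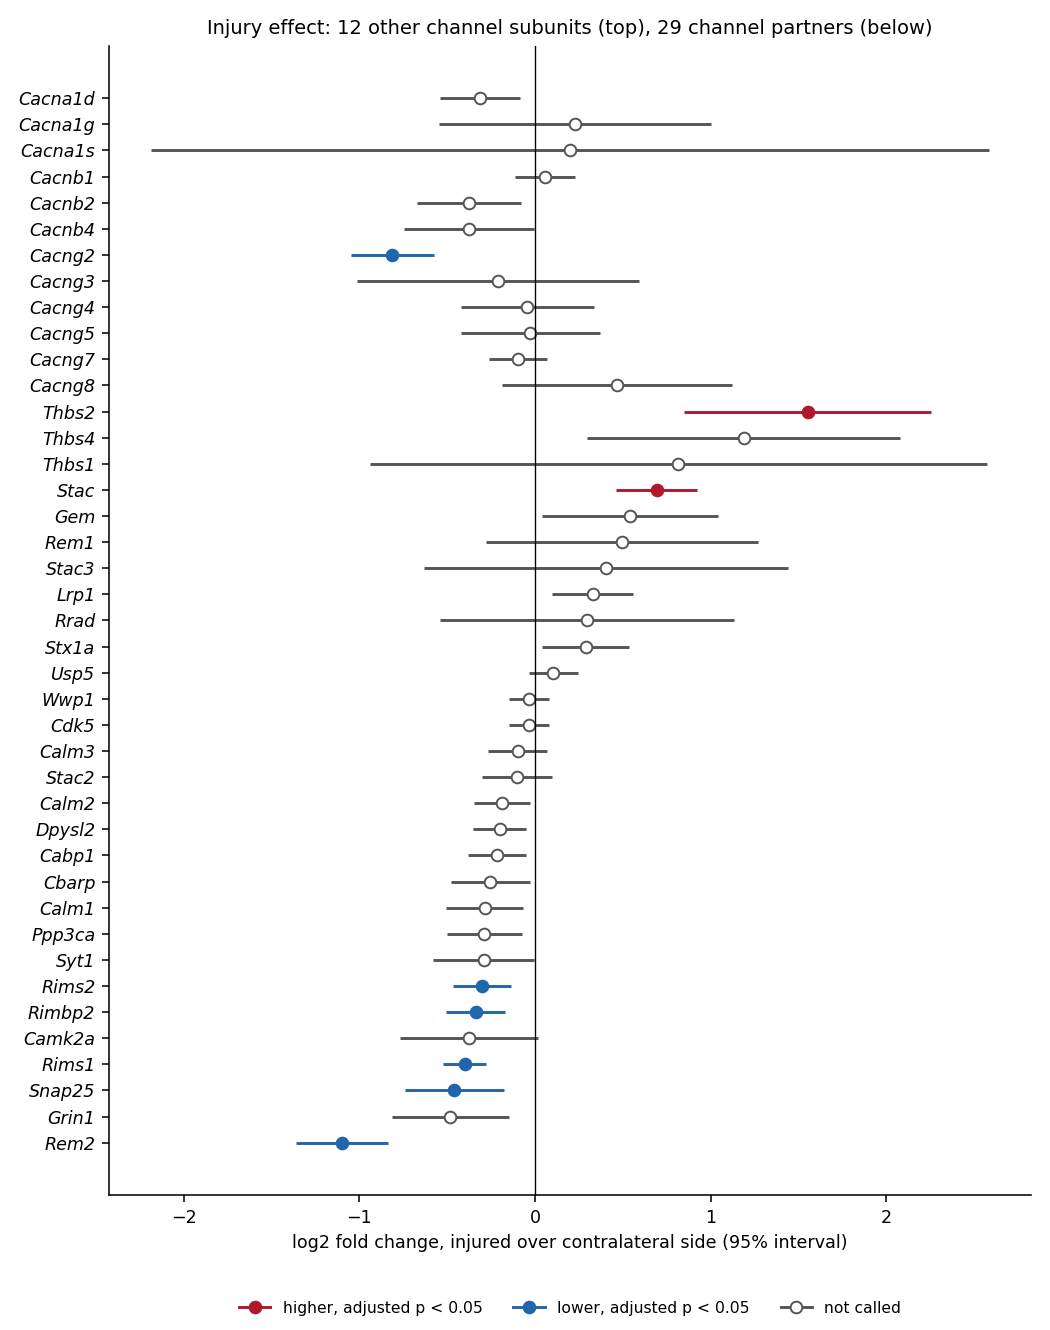
Injury effect on the 12 other channel subunit genes tested (upper rows) and 29 genes of channel partners (lower rows): log2 fold change of the injured over the contralateral side (horizontal axis) with 95% intervals from the edgeR fit. Red marks genes called higher (Thbs2 and Stac), blue genes called lower, among them Rem2 at -1.10 and Cacng2 at -0.81, and open circles genes not called.

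Of 29 genes whose products bind calcium channels or act with them at release sites, 2 were called higher, 5 lower and 22 were not called, against 10.1% and 8.02% of all genes tested. The median log2 fold change of the 29 was -0.10, against 0.016 over all genes. Rem2, an RGK-family small GTPase that inhibits high-voltage channels, had 6.44, 7.24 and 6.01 CPM in injured-side ganglia at days 1, 3 and 7, against 11.83, 15.29 and 15.06 CPM in contralateral ganglia and 13.64 and 13.07 CPM in the no injury pool. All injured values lay below all others (log2 -1.10 ± 0.11, adjusted p = 0.00213). Rims1, a scaffold that tethers channels at the active zone, had 52.08, 56.14 and 52.59 CPM in injured-side ganglia, against 66.92, 72.95 and 71.64 CPM in contralateral ganglia and 75.44 and 74.49 CPM in the no injury pool, again without overlap (log2 -0.40 ± 0.053, adjusted p = 0.00415). The other falls were in genes of the release machinery: Rimbp2 (-0.34, adjusted p = 0.0206), Rims2 (-0.30, adjusted p = 0.0273) and the SNARE gene Snap25 (-0.46, adjusted p = 0.038). These 3 calls were lost without the day 7 pool (adjusted p of 0.0938 for Rimbp2, 0.142 for Rims2 and 0.21 for Snap25), without the day 3 pool and without the no injury pool, where those of Rem2 and Rims1 held.

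Stac, an adaptor that binds L-type channels, had 108.6, 136.7 and 146.9 CPM in injured-side ganglia, against 77.34, 89.5 and 73.9 CPM in contralateral ganglia and 68.21 and 75.56 CPM in the no injury pool. Its injured values were the 3 highest of the 8 (log2 0.69 ± 0.098, adjusted p = 0.00666). Thbs2, a thrombospondin gene of the family whose secreted proteins have been reported as ligands of the Cacna2d1 product, had 20.45, 48.0 and 26.18 CPM in injured-side ganglia, against 7.51, 10.19 and 13.18 CPM in contralateral ganglia and 19.04 and 12.75 CPM in the no injury pool. The injured values lay above all others, the day 1 value only narrowly above the left no injury library (log2 1.55 ± 0.28, adjusted p = 0.0233). The call was lost with no filter on low counts (adjusted p = 0.11) and without the day 1 pool (adjusted p = 0.121). Thbs4 (1.19 ± 0.34, adjusted p = 0.0784) and Thbs1 (0.82 ± 0.61, adjusted p = 0.428) did not pass, though Thbs4 passed without the day 7 pool (1.70, adjusted p = 0.0088) and with DESeq2 (adjusted p = 0.000151). Lrp1, which encodes a receptor that aids α2δ trafficking, gave 0.33 ± 0.098 (adjusted p = 0.059) and passed without the day 1 pool (0.42, adjusted p = 0.0187) and with DESeq2 (adjusted p = 0.0238).

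Cell type markers are given beside these values, and most were not called; of all genes tested, 10.1% were called higher and 8.02% lower. Of 12 pan-neuronal genes 0 were called higher and 2 lower (Rbfox3 and Snap25), and their summed level was 7628 to 8381 CPM in injured-side ganglia, 8342 to 8686 CPM in contralateral ganglia and 7840 to 7984 CPM in the no injury pool. Of 10 nociceptor genes 3 were lower, with sums of 2713 to 4270 CPM in injured, 3751 to 4076 CPM in contralateral and 4539 to 4599 CPM in no injury libraries. Of 8 large-fibre neuron genes 6 were lower, with sums of 3037 to 3923 CPM in injured, 4369 to 4579 CPM in contralateral and 4368 to 4439 CPM in no injury libraries. Of 4 genes of C low-threshold mechanoreceptors 1 was lower, Gfra2, which is also 1 of the 3 nociceptor genes called. The 4 genes summed to 176.7 to 291.5 CPM in injured, 283.7 to 343.1 CPM in contralateral and 319.7 to 352.2 CPM in no injury libraries. Of the other cells, 2 of 6 satellite glia genes were higher, with sums of 818.9 to 1178 CPM in injured, 775.8 to 885.4 CPM in contralateral and 734.9 to 776.2 CPM in no injury libraries. For macrophages 1 of 8 genes was higher, with sums of 50.52 to 253.6 CPM in injured, 49.26 to 101.3 CPM in contralateral and 85.72 to 107.2 CPM in no injury libraries. For fibroblasts 3 of 5 were higher, with sums of 561.9 to 1448 CPM in injured, 374.2 to 777.2 CPM in contralateral and 979.6 to 1119 CPM in no injury libraries, and for endothelial and mural cells 1 of 6 was higher. None of 5 myelinating Schwann cell genes, 5 neutrophil genes and 5 muscle genes was called, and the neutrophil genes summed to 17.13 CPM in the injured and 398.5 CPM in the contralateral library of day 1. No marker was at 0 in any library. When libraries were scaled by the geometric mean of the pan-neuronal genes, which raised the median log2 fold change of all genes to 0.147, Cacna2d1 gave 0.98 (adjusted p = 0.067) and Cacna1i, still called, was the 1 gene of the 10 that passed as lower. With that scaling Cacna2d3 gave -0.11 (adjusted p = 0.303) and Cacna1h -0.11 (adjusted p = 0.332), both below 0 but not called. The highest macrophage and fibroblast sums among injured libraries, 253.6 and 1448 CPM, were those of day 3. The part of the other cell types in the changes of the channel genes was not tested.

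By Pearson correlation of log2 CPM over the 8 libraries, among 13717 genes, those most like Cacna2d1 were Tubb2b (r = 0.998), a β-tubulin gene, Irs2 (0.996), an insulin receptor substrate gene, and Rtn4 (0.996), the Nogo gene. Tubb2b averaged 379.8 ± 117.5 CPM in injured-side ganglia, 228.5 ± 25.0 CPM in contralateral ganglia (SD, n = 3 each) and 184.6 CPM in the no injury pool. Those most like Cacna1i were L3mbtl1, Tctex1d2 and Amph, the amphiphysin gene (each r = 0.996), of which Amph averaged 184.1 ± 15.6 CPM in injured-side ganglia, 229.6 ± 8.22 CPM in contralateral ganglia and 228.1 CPM in the no injury pool. Among the 10 genes themselves Cacna1i ran closest with Cacna2d2 (r = 0.973) and Cacna2d1 ran opposite to both (r = -0.879 with Cacna1i and -0.901 with Cacna2d2). These correlations describe 8 libraries from 4 pools that share the injury contrast.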

How the data were processed

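Bulk RNA sequencing of pooled mouse dorsal root ganglia gave 8 libraries. The deposited values are raw counts of reads per gene, made by the authors. The submitters' processing notes name GRCm38 and the programs STAR 2.5.4a, cutadapt 1.16, DESeq2 and featureCounts 1.6.3, without saying what each did. Annotation release, strandedness and treatment of ambiguous reads were not given in the sources used here. All 8 columns entered, and GENCODE M21 annotated 53706 of the 53801 IDs.

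The test throughout was edgeR 4.0.16 under R 4.3.3: TMM scaling, filterByExpr (minimum count 10), a robust quasi-likelihood fit, and Benjamini-Hochberg adjustment over every gene tested, with calls at 0.05. The injury effect had a term for each pool of mice and left 3 residual degrees of freedom. Of these, 1 comes from the left to right difference of the no injury pool. Its p-values thus measure the spread of the side difference over the operated pools, time included, together with that difference. The quasi-likelihood fit also moderates the error of each gene by that of other genes. The trend model adds an interaction of injury with log2 day and leaves 2. For contralateral against no injury, both no injury libraries were summed to 1 sample whose spread is taken to equal that of the contralateral ones, which leaves 2. Pools pair the sides because, by design, both sides come from the same mice. As a check, the deviations of the 2 sides from their group means correlated by 0.249 (day 1), -0.0618 (day 3) and 0.356 (day 7).

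Side ratios are differences of TMM-scaled log2 CPM (prior count 2). RPKM is CPM per kilobase of merged exons. Alternatives were DESeq2 1.42.0, limma-voom 3.58.1, other scalings, no filter, left-out pools, no block and a side term. Opposite-strand exons overlap Cacna1a, Cacna1h and Cacna2d2, whose partners had 4, 34 and 2 reads over the 8 libraries. The scripts were tested on simulated counts. The 10 genes, the subunit and partner lists and the cell type markers were chosen with earlier results of these data known, and 1 gene first listed as a partner was left out of the list and its counts after its results were known, and is not reported here. All 10 genes are named, other subunits above 1 CPM on average, and the 6 partners of lowest p; Snap25, Thbs1, Thbs4 and Lrp1 were added after their values were seen. The genes most like Cacna2d1 and Cacna1i are the 3 protein-coding ones with the highest correlation each, at a mean of at least 1 CPM.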

Additional observations from a re-analysis of the deposited data

How the results depend on the processing

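Among the 10 genes 1 higher and 3 lower calls became 0 and 0 without the no injury pool, with side as a further term and against the no injury libraries alone, and 0 higher with no filter; pan-neuronal scaling gave 1 higher, Cacna1b in place of Cacna2d1, and 1 lower, Cacna1i. Over all genes, 1644 higher and 1302 lower became 2538 and 613 with pan-neuronal scaling, 763 and 449 without the no injury pool, 6 and 0 with the side term and 703 and 442 against no injury alone. Leaving out pools gave 475 to 2382 higher and 156 to 2287 lower over all genes, and 0 to 1 higher and 0 to 5 lower among the 10. With no replicate block the pool pairing was dropped, and the injured side was set against all other libraries. Cacna2d1 then gave 1.09 (adjusted p = 0.0264), Cacna2d3 -0.24 and Cacna1h -0.23, all still called, and no call among the 10 changed. This fit and the one against no injury alone counted the left and right no injury libraries of 1 pool as separate samples. With the side term Cacna2d1 gave 0.87 (adjusted p = 0.572); that term rests on the no injury pool alone.

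The trend called 37 higher and 12 lower genes with DESeq2, 9 higher with RLE factors and 29 higher and 3 lower with no filter, and 1 of the 10 genes with DESeq2 and with no filter. Over pairs of days it called 13 to 644 higher and 82 to 570 lower, and 0 to 1 higher and 0 to 5 lower among the 10; these fits have 1 residual degree of freedom, from the left and right no injury libraries, so their calls are no test of time. Contralateral against no injury gave 87 higher and 75 lower with DESeq2, 276 and 422 with no filter, 188 and 184 with the no injury libraries as 2 samples, and 13 to 447 and 3 to 507 when a contralateral library was left out. Among the 10, Cacna2d1 was called higher with no filter. The fits with a contralateral library left out have 1 residual degree of freedom, so their calls are no test.

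Signs turned for the values below, none of which was called at the settings reported, and the cause was not tested. For the injury effect, pan-neuronal scaling gave 0.11 for Cacnb3, 0.089 for Cacng4, 0.10 for Cacng5 and 0.034 for Cacng7. The side term gave 0.071 for Cacnb3, -0.82 for Cacna1g, 0.31 for Cacng3, 0.26 for Cacng4, 0.034 for Cacng5 and 0.055 for Cacng7. No block gave -0.17 for Cacna1g, -1.49 for Cacna1s and 0.0012 for Cacng5. Against no injury alone Cacna1a was -0.022, Cacna1g -0.62, Cacna1s -2.53, Cacng7 0.022 and Thbs1 -0.0082. With pools left out, Cacna1a ran from -0.11 to 0.16, Cacnb3 from -0.099 to 0.062, Cacna1g from -0.018 to 0.44, Cacna1s from -0.18 to 0.58, Cacng3 from -0.64 to 0.20, Cacng4 from -0.22 to 0.11 and Cacng5 from -0.28 to 0.19. Trend slopes over pairs of days ran from -0.44 to 0.29 for Cacna2d2, -0.0083 to 0.050 for Cacna2d3, -0.33 to 0.25 for Cacna1a, -0.23 to 0.39 for Cacna1b, -0.28 to 0.28 for Cacna1c, -0.66 to 0.33 for Cacna1e, -0.12 to 0.061 for Cacna1h, -0.66 to 0.40 for Cacna1i and -0.20 to 0.17 for Cacnb3. For contralateral against no injury, no filter gave -0.014 for Cacna2d3 and -0.019 for Cacnb3, and leaving out a contralateral library gave -0.0058 to 0.027 for Cacna2d3, -0.022 to 0.059 for Cacna1h, -0.027 to 0.12 for Cacna1i and -0.026 to 0.029 for Cacnb3. Side ratios of the 10 genes with a prior count of 0.5 kept their direction, as did the mean shares of Cacna2d1, Cacna1b and Cacna1i with no length scaling. Counted over the genes named and all alternatives, 434 values kept sign and side of the threshold, 53 lost a call, 25 gained one and 42 changed sign.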
